A study of Mus musculus with 12 samples.

Results

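The transcripts of 9 genes of the DNA replication machinery were followed in mesenchymal stem cells of mouse adipose tissue, which are stromal cells taken from fat. The genes were Mcm2 (ENSMUSG00000002870), Mcm3 (ENSMUSG00000041859), Mcm4 (ENSMUSG00000022673), Mcm5 (ENSMUSG00000005410), Mcm6 (ENSMUSG00000026355) and Mcm7 (ENSMUSG00000029730), which encode the helicase subunits, with Cdc45 (ENSMUSG00000000028), Cdc6 (ENSMUSG00000017499) and Pcna (ENSMUSG00000027342). They were taken by gene ID from a table of 56748 genes, and all 9 were among the 14338 genes that passed the filter on low counts. They were chosen by gene ID, and the rule named no level or fold change, but earlier results of these libraries were known when they were proposed. The tests below therefore describe these libraries and give no independent support. The cells had been kept as 3D spheroids, that is, as cells clustered into balls, or as attached 2D cells, in one serum-supplemented medium, with libraries from 24 h and 0 h of either culture. The 4 groups, 3D at 24 h, 2D at 24 h, 3D at 0 h and 2D at 0 h, held 3 libraries each. The labels give no strain, sex or age and no time of spheroid formation before 0 h. Nor do they state if the 3 libraries of a group came from separate cultures. Hence p-values cover only the spread among libraries of a group and that spread may be technical. It was estimated over all 4 groups together, and the filter and the scaling to library size were rerun whenever a library was left out. Leaving out a library can therefore change the fold changes and p-values of comparisons that do not use it. Totals ran from 10182590 to 17109609 expected counts per library. The labelled cell type was not checked against marker genes, because the tables used here do not pair other gene IDs with symbols.

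Before a cell copies its DNA, replication origins are licensed in G1: the origin recognition complex, Cdc6 and Cdt1 load a pair of rings, each made of the subunits MCM2 to MCM7, onto DNA. At the start of S phase, Cdc45 and the GINS complex bind each ring and turn it into the active helicase. PCNA, the sliding clamp, then holds the DNA polymerases on the template and also serves in DNA repair. Transcripts of licensing genes are low in cells that have left the cell cycle, and many of these genes are known targets of E2F transcription factors, which act at the passage from G1 into S phase.

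Promoter sequences are shown because most of the genes moved together. The windows, from RefSeq on GRCm38.p6, ran from 250 bases before to 50 bases after an annotated start. Entries were found for 8 of the 9 genes, with 2 starts for Mcm7 and so 9 windows in all, and Mcm4 had no entry. The search used 4 spellings of the E2F motif, TTTCCCGC, TTTCGCGC, TTTGCCGC and TTTGGCGC, on both strands. At least 1 spelling was found in 5 of the 9 windows, those of Mcm3, Mcm5, Mcm6, Mcm7 at its start 2 and Cdc6, against 2.26% of all 32851 windows. The 30 bases around each match follow, read along the gene, with every matching base in capitals:
Mcm3 at chr1:20820275-20820304, minus strand: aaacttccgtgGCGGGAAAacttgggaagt
Mcm3 at chr1:20820263-20820292, minus strand: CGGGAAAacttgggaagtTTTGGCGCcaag
Mcm5 at chr8:75109347-75109376, plus strand: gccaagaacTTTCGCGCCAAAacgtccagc
Mcm6 at chr1:128359795-128359824, minus strand: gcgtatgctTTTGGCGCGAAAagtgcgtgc
Mcm6 at chr1:128359734-128359763, minus strand: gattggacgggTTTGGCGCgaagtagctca
Mcm7 at chr5:138172030-138172059, minus strand: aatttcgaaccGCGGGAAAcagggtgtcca
Mcm7 at chr5:138171849-138171878, minus strand: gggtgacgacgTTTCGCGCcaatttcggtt
Cdc6 at chr11:98908002-98908031, plus strand: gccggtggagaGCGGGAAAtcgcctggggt
In Mcm5 and in the first Mcm6 site, 2 spellings on opposite strands overlapped to form runs of 12 bases. The Mcm5 run lay 153 to 142 bases before the start. The Mcm6 sites lay 110 to 99 and 47 to 40 bases before it, while both Mcm3 sites lay after the start. None of the 4 spellings was in the windows of Mcm2, Cdc45, Pcna or Mcm7 at its start 1, which says only that these letters are not there. Genes with no match had log2 fold changes, in spheroids against 2D cells at 24 h, of -1.27 (Mcm2), -1.13 (Cdc45) and -0.17 (Pcna). For genes with a match they were -1.63 (Mcm3), -2.15 (Mcm5), -1.26 (Mcm6), -1.16 (Mcm7) and -1.68 (Cdc6). The Mcm7 value covers the whole gene and cannot be assigned to either start. A link between the motif and the fold changes was not tested. The 250 bases before the start of Mcm6, with 2 sites, and of Pcna, with none, are given to set a window that holds the motif beside one that does not:
Mcm6 at chr1:128359706-128359955, minus strand: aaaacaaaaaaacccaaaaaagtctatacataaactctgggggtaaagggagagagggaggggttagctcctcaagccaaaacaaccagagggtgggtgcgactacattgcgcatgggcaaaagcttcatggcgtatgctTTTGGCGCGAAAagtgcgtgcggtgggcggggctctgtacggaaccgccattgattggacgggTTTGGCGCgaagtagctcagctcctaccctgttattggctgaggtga
Pcna at chr2:132253181-132253430, minus strand: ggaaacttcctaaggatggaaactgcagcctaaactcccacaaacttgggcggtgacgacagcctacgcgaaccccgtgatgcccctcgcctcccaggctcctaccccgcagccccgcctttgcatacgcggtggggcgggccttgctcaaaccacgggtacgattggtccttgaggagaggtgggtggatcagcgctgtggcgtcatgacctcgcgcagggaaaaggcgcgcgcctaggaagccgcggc
Other promoter motifs were found in larger shares of all windows. The GC box, GGGCGG, was in 7 of the 9 windows, against 35.7% of all windows. The CCAAT box, CCAAT, was in 8 of 9, against 37.4%. The CHR motif, TTTGAA, known from genes expressed late in the cell cycle, was in 2 of 9, those of Mcm2 and Cdc45, against 17.9%. A match is a description of letters and not evidence of binding.

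**Figure D1:**
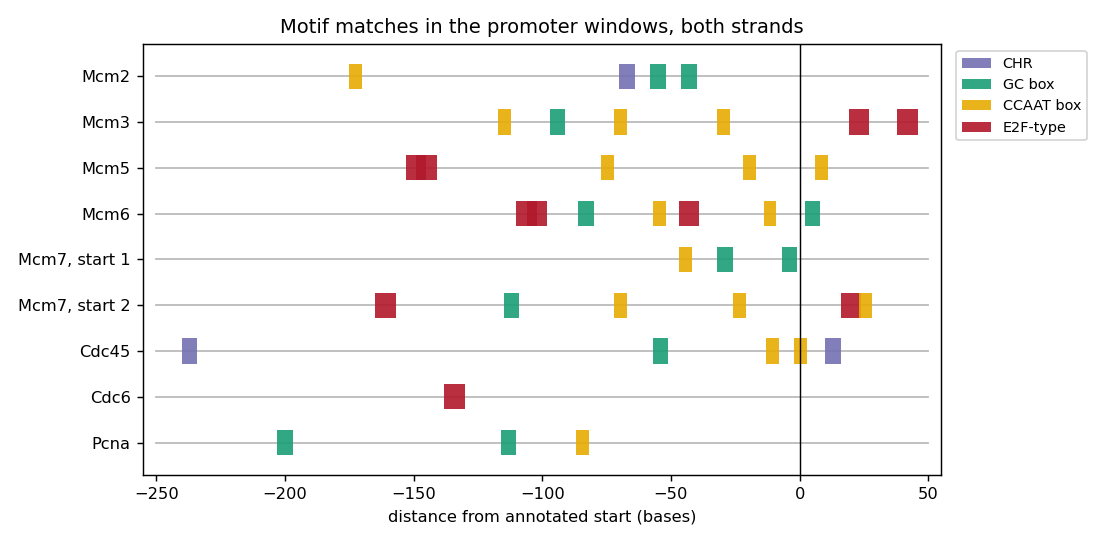
Motif matches on both strands in the 9 promoter windows, by distance in bases from the annotated start (vertical line at 0); grey lines span each window. E2F-type matches (red) stand in the windows of Mcm3, Mcm5, Mcm6, Mcm7 at start 2 and Cdc6.

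The comparison of cultures at 24 h asked how replication genes in spheroids stood against those in 2D cells. Transcripts of all 6 helicase subunits, of Cdc45 and of Cdc6 were lower in spheroids, each at least 2.19-fold, and Pcna did not pass the test. Thus 8 of the 9 genes were called lower and 0 higher, at an adjusted p under 0.05 in edgeR's quasi-likelihood test over all genes. Of all genes tested, 22.8% were called lower and 19.6% higher. The median log2 fold change of the 9 genes was -1.26, and that of all genes was 0.00, with quartiles of -0.49 and 0.43. These are whole-culture RNA measurements, in which fewer replicating cells and less RNA per cell cannot be told apart.

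Levels are given first as CPM, read counts scaled to library size by TMM, which compare libraries for 1 gene. Mcm5, a ring subunit, had 17.9, 21.8 and 22.8 CPM in spheroids at 24 h, against 91.4, 92.2 and 93.0 CPM in 2D cells at 24 h. No library of 1 culture came near those of the other, and the 2D values were almost equal. The log2 fold change was -2.15 ± 0.14 (SE; adjusted p = 1.6e-09, edgeR), that is, 4.44-fold lower in spheroids. Only 3.52% of all genes tested had a lower fold change. Mcm3, also a ring subunit, stood at 29.96, 30.9 and 35.8 CPM in spheroids, against 88.4, 104 and 106 CPM in 2D cells. Its log2 fold change of -1.63 ± 0.14 (SE; adjusted p = 5.1e-08, edgeR) was second in size among the subunits, and the groups did not overlap.

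The other 4 subunits changed by similar amounts. Mcm6 had the most counts of the subunits in each library at 24 h. It had 69.8, 62.6 and 59.0 CPM in spheroids at 24 h, against 153, 153 and 152 CPM in 2D cells at 24 h. The 2D libraries of this gene were almost equal, and every spheroid library was below them. Its log2 fold change was -1.26 ± 0.12 (SE; adjusted p = 2.2e-07, edgeR). For Mcm2, the subunit whose N-terminus also binds histones, the values were 40.5, 45.2 and 40.5 CPM in spheroids, against 97.4, 105 and 101.4 CPM in 2D cells, with a log2 fold change of -1.27 ± 0.13 (SE; adjusted p = 3.4e-07, edgeR). All spheroid libraries again lay below all 2D libraries. Mcm4 had 44.8, 41.4 and 39.2 CPM in spheroids, against 87.7, 90.8 and 101.7 CPM in 2D cells, and Mcm7 had 38.4, 44.5 and 40.9 CPM in spheroids, against 82.0, 95.5 and 99.4 CPM in 2D cells. These genes, which encode neighbours in the ring's catalytic core, both had a log2 fold change of -1.16 (SE 0.114 for Mcm4 and 0.115 for Mcm7; edgeR adjusted p = 2.7e-07 and 3.1e-07).

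Outside the ring, Cdc6 and Cdc45 were lower too. Cdc6, the ATPase that helps load the ring in G1, had 8.06, 6.28 and 7.47 CPM in spheroids at 24 h, against 22.3, 24.3 and 23.8 CPM in 2D cells at 24 h. Its spheroid libraries held 148, 77 and 100 expected counts, the fewest of the 9 genes in each of these libraries. The log2 fold change was -1.68 ± 0.19 (SE; adjusted p = 1.6e-06, edgeR), or 3.21-fold lower. Cdc45, which joins the ring when origins fire, had 11.2, 11.99 and 15.4 CPM in spheroids, against 27.0, 29.8 and 27.4 CPM in 2D cells. No spheroid library reached the 2D values, and the log2 fold change was -1.13 ± 0.15 (SE; adjusted p = 7.7e-06, edgeR). Pcna, the clamp, stood apart from the rest with 64.3, 86.2 and 77.7 CPM in spheroids, against 96.3, 76.0 and 84.9 CPM in 2D cells. Its libraries overlapped, and the log2 fold change of -0.17 ± 0.13 (SE; adjusted p = 0.29, edgeR) did not pass the test, which does not show equal levels. Expected counts of Pcna were not whole in 10 of the 12 libraries, so part of its reads also matched elsewhere, which leaves its level uncertain to that extent. Those of Mcm7 were not whole in 3 libraries, all at 0 h, so the same limit holds for Mcm7 there.

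**Figure D2:**
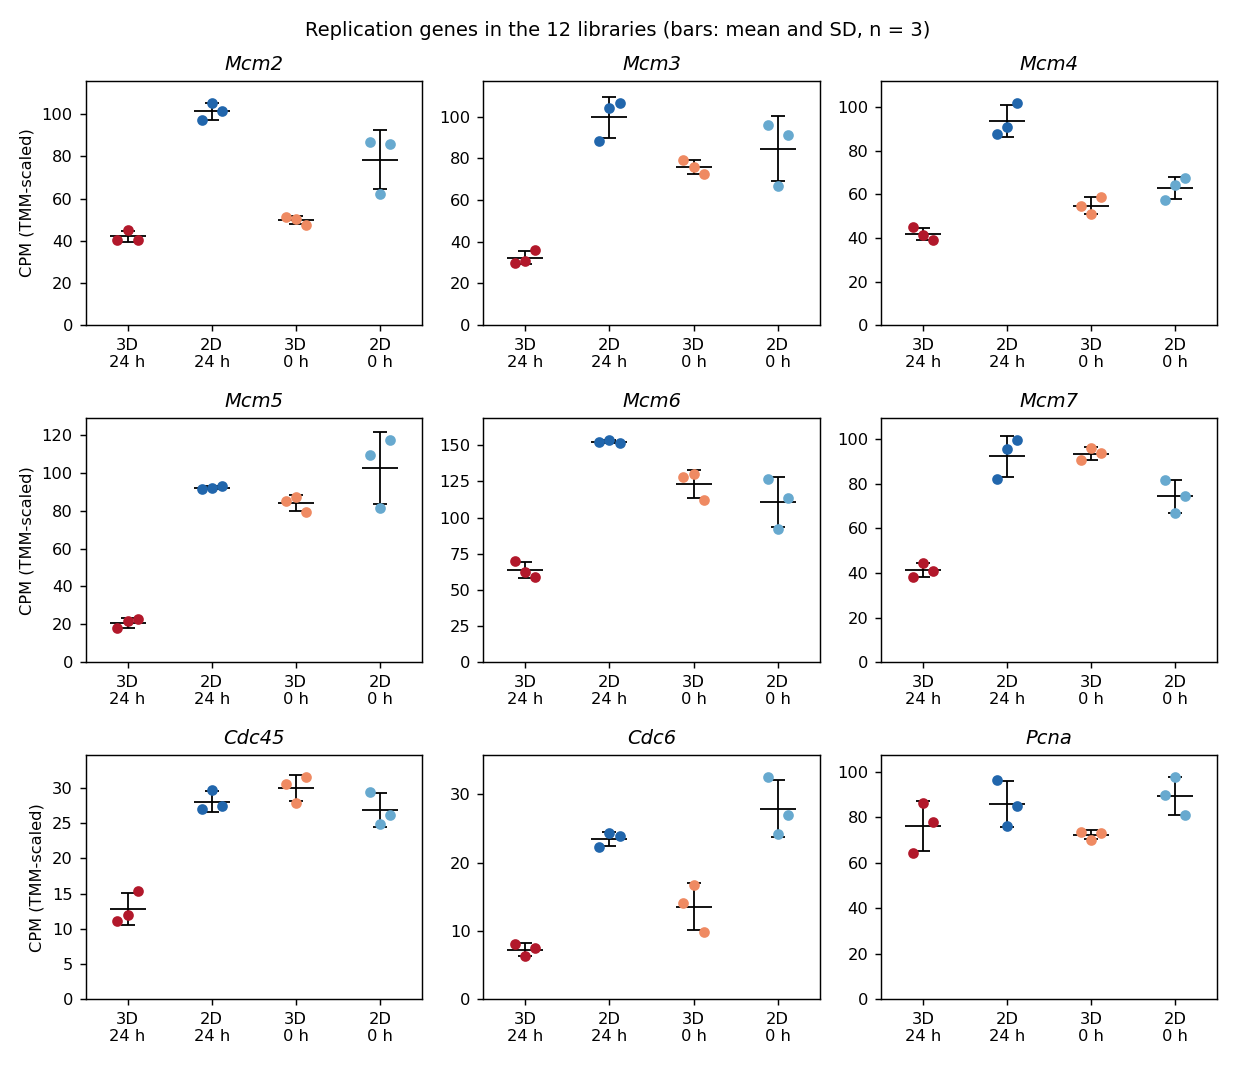
CPM (TMM-scaled) of each gene in the 12 libraries, by group; points are libraries, and black bars give the mean and SD (n = 3). In spheroids at 24 h every gene but Pcna lay below all libraries of 2D cells at 24 h, and Cdc6 and Mcm2 were also low in spheroids at 0 h. The share of all genes tested that lay apart in this way was not counted, while 22.8% were called lower at 24 h.

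The same comparison at 0 h gave a different picture: 2 genes were lower in spheroids, 1 was higher and 6 did not pass the test. Among all genes tested, 22.7% were called lower and 23.1% higher, so the counts for the 9 genes were not above the background. The median log2 fold change of the 9 genes was -0.21, against 0.02 over all genes. Cdc6 had 14.0, 16.7 and 9.91 CPM in spheroids at 0 h, against 32.4, 24.2 and 27.0 CPM in 2D cells at 0 h. The groups were apart, with a log2 fold change of -1.04 ± 0.18 (SE; adjusted p = 2e-04, edgeR). Mcm2 had 51.4, 50.2 and 47.7 CPM in spheroids, against 87.0, 62.3 and 86.0 CPM in 2D cells, a log2 fold change of -0.66 ± 0.13 (SE; adjusted p = 4e-04, edgeR). Every spheroid library was below every 2D library here, although 2D replicate 2 was much lower than the other two.

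Mcm7 went the other way at 0 h, with 90.4, 96.1 and 93.8 CPM in spheroids, against 81.4, 66.7 and 74.6 CPM in 2D cells. The groups did not overlap, and the log2 fold change was 0.33 ± 0.11 (SE; adjusted p = 0.023, edgeR). The remaining ring subunits overlapped between the cultures, with log2 fold changes from -0.29 for Mcm5 (edgeR adjusted p = 0.083) to 0.16 for Mcm6 (edgeR adjusted p = 0.3). Cdc45 likewise overlapped, at 30.6, 27.9 and 31.5 CPM in spheroids and 29.5, 24.96 and 26.1 CPM in 2D cells. Pcna was lower in each spheroid library than in each 2D library, at 73.8, 70.1 and 73.2 CPM in spheroids against 89.6, 97.5 and 80.9 CPM in 2D cells, but its log2 fold change of -0.30 ± 0.13 (SE; adjusted p = 0.057, edgeR) missed the threshold. In 2D at 0 h, replicate 2 had the lowest CPM for 7 of the 9 genes, 5 of them ring subunits. Without it, 4 genes were lower and 0 higher: Mcm3 (log2 fold change -0.30, edgeR adjusted p = 0.049) and Mcm5 (-0.44, edgeR adjusted p = 0.0058) joined Mcm2 and Cdc6, and Mcm7 lost its call (edgeR adjusted p = 0.088). The share of all genes called in that fit was not counted, so the shift cannot be set against a background. The Mcm7 call also ended without 3D 0 h replicate 2 or replicate 3 (edgeR adjusted p = 0.060 and 0.059), and Pcna was called lower without 3D 24 h replicate 1 (edgeR adjusted p = 0.025).

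Whether the culture difference changed between the times was tested directly. The 3D against 2D log2 fold change was lower at 24 h than at 0 h for 7 of the 9 genes, all 6 ring subunits and Cdc45, and higher for 0. Of all genes tested, 20.5% had a lower and 18.7% a higher one at 24 h. The median log2 difference was -1.29 over the 9 genes, against -0.02 over all genes. The size ran from a log2 difference of -0.61 ± 0.18 (SE; adjusted p = 0.011, edgeR) for Mcm2 to -1.86 ± 0.19 (SE; adjusted p = 7.6e-07, edgeR) for Mcm5. Mcm7 followed Mcm5 with -1.50 ± 0.16 (SE; adjusted p = 1.4e-06, edgeR), and was the one gene called lower in spheroids at 24 h and higher at 0 h. For Cdc6, low in spheroids at both times, the log2 difference of -0.65 ± 0.26 (SE; adjusted p = 0.062, edgeR) missed the threshold. It passed with upper-quartile scaling (-0.70, edgeR adjusted p = 0.044), without 3D 0 h replicate 3 (-0.83, edgeR adjusted p = 0.015) and without 2D 0 h replicate 1 (-0.72, edgeR adjusted p = 0.050 after rounding). Pcna, with a log2 difference of 0.13 ± 0.18 (SE; adjusted p = 0.6, edgeR), did not pass.

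**Figure D3:**
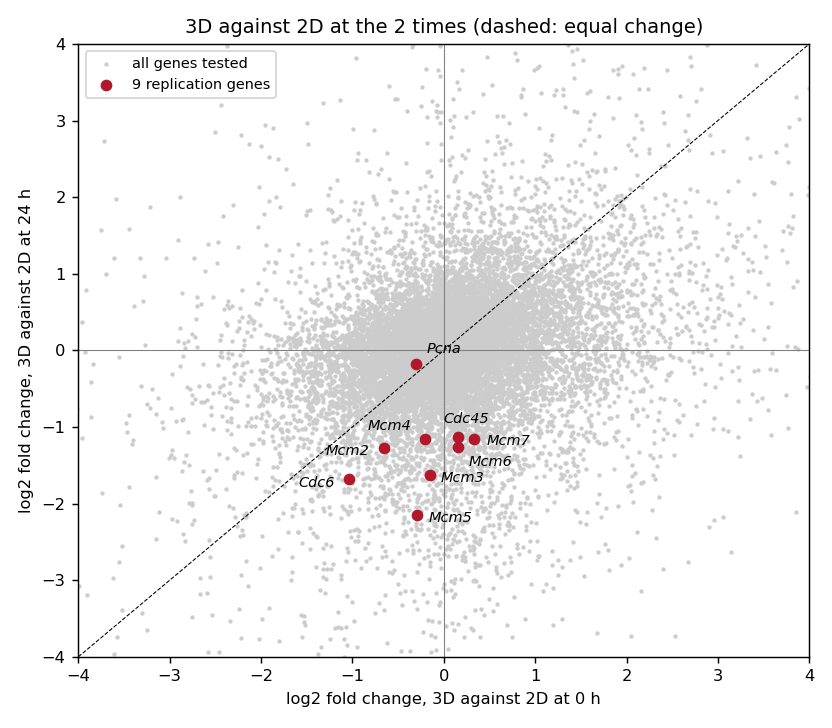
Fitted log2 fold change of 3D against 2D at 24 h (vertical) against the same at 0 h (horizontal) for the 9 replication genes (red) and all 14338 genes tested (grey, of which 328 lie outside the axes); the dashed line marks equal change. All ring subunits, Cdc45 and Cdc6 lie below the line, with Mcm5 lowest at -2.15 on the vertical axis, while Pcna lies near it.

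Set over time within spheroids, 7 of the 9 genes were lower at 24 h than at 0 h and 0 were higher. Among all genes, 24.7% were called lower and 23.8% higher in this comparison. The median log2 fold change was -0.95 for the 9 genes, against 0.00 for all genes. These values use the same spheroid libraries as the comparisons of cultures and are not independent of them. Mcm5 had 17.9, 21.8 and 22.8 CPM at 24 h, against 85.3, 87.3 and 79.3 CPM at 0 h. That is 4.04-fold lower, with a log2 change of -2.02 ± 0.14 (SE; adjusted p = 4.5e-09, edgeR), and 4.75% of all genes had a lower fold change. Mcm3, Cdc45 and Mcm7 had log2 fold changes of -1.24, -1.23 and -1.18 (edgeR adjusted p = 1.4e-06, 3.1e-06 and 2.8e-07). Mcm6 followed with -0.95 ± 0.12 (SE; adjusted p = 5.7e-06, edgeR). The smallest called changes were those of Cdc6, -0.89 ± 0.19 (SE; adjusted p = 0.0011, edgeR), and Mcm4, -0.39 ± 0.11 (SE; adjusted p = 0.01, edgeR). On the deposited log2(TPM + 1) values both lost their calls in limma, at -0.55 for Cdc6 (adjusted p = 0.058) and -0.30 for Mcm4 (adjusted p = 0.11). Mcm4 also lost its call without 3D 24 h replicate 3 (edgeR adjusted p = 0.067).

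Mcm2 had already been low in spheroids at 0 h, and its 40.5, 45.2 and 40.5 CPM at 24 h lay below its 51.4, 50.2 and 47.7 CPM at 0 h in every library without passing the test. Its log2 change was -0.24 ± 0.13 (SE; adjusted p = 0.12, edgeR). Without 2D 0 h replicate 2 it passed, at an edgeR adjusted p of 0.047. Pcna overlapped between the times, with 64.3, 86.2 and 77.7 CPM at 24 h and 73.8, 70.1 and 73.2 CPM at 0 h. Its log2 fold change of 0.07 ± 0.13 (SE; adjusted p = 0.67, edgeR) did not pass.

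In 2D cells the direction was the other one, with 4 genes higher at 24 h than at 0 h and 0 lower, against 17.4% of all genes higher and 17.0% lower. The median log2 fold change was 0.24 for the 9 genes, against 0.02 for all genes. The 4 were ring subunits. Mcm4 had 87.7, 90.8 and 101.7 CPM in 2D cells at 24 h, against 57.5, 64.1 and 67.5 CPM at 0 h, without overlap and with a log2 change of 0.57 ± 0.11 (SE; adjusted p = 0.0011, edgeR). Mcm6 had 153, 153 and 152 CPM at 24 h, against 126, 92.2 and 113 CPM at 0 h, again without overlap, and a log2 change of 0.46 ± 0.12 (SE; adjusted p = 0.0066, edgeR). Smaller values were found for Mcm2, 0.37 ± 0.12 (SE; adjusted p = 0.029, edgeR), and Mcm7, 0.31 ± 0.11 (SE; adjusted p = 0.04, edgeR). The calls of these 2 genes were not stable: both ended without 2D 0 h replicate 2, which left 2 genes called, and likewise without 2D 24 h replicate 2, 2D 24 h replicate 3 or 3D 24 h replicate 3. Over the 19 alternatives tried, Mcm2 was called in 14 and Mcm7 in 8. Mcm3, Mcm5, Cdc45, Cdc6 and Pcna did not pass, with log2 fold changes from -0.25 for Cdc6 to 0.24 for Mcm3 (edgeR adjusted p = 0.3 and 0.18).

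**Figure D4:**
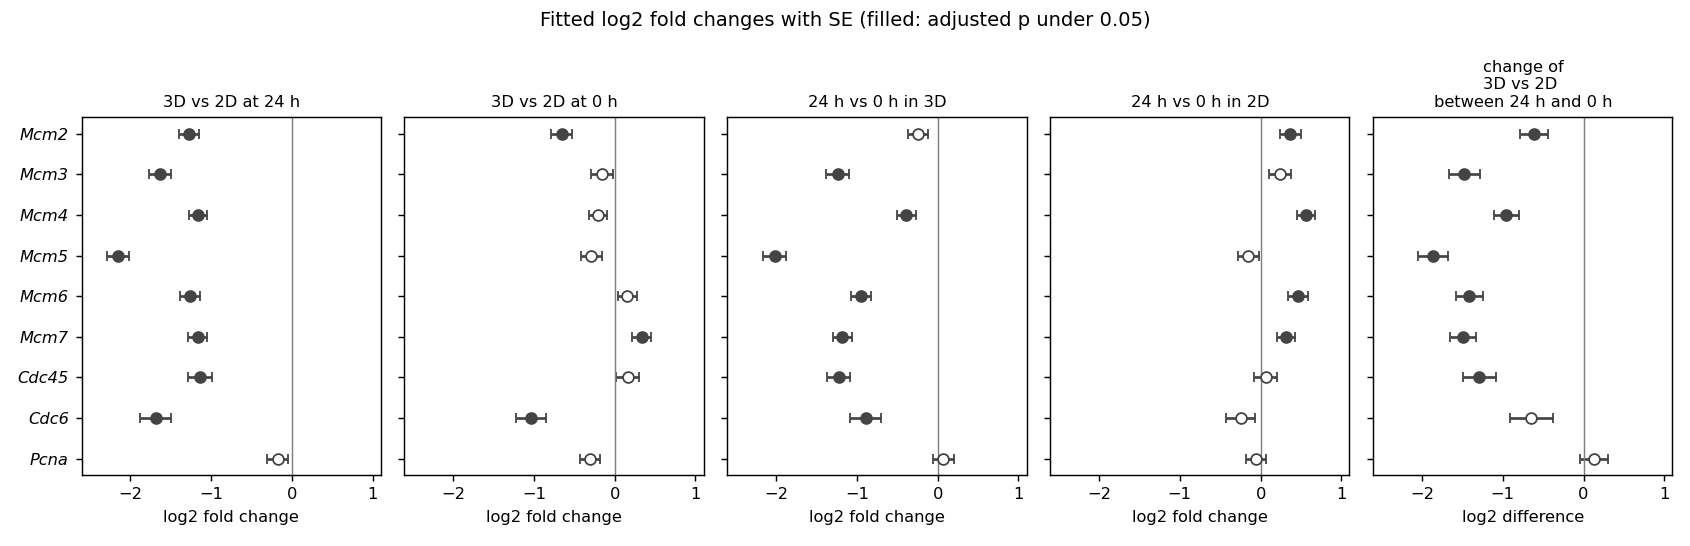
Fitted log2 fold changes of the 9 genes with SE in the 4 comparisons, and the log2 difference between the culture changes at the 2 times (right panel); filled points have an adjusted p under 0.05. The ring subunits and Cdc45 lie left of 0 at 24 h, on either side of 0 at 0 h, and Pcna is unfilled in every panel.

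Levels of different genes were compared in TPM, a measure scaled to library size that takes account of transcript length. Pcna was the most abundant of the 9 in every group, at 97.2 ± 7.92 TPM in spheroids at 24 h, 106 ± 4.49 in 2D cells at 24 h, 85.2 ± 1.75 in spheroids at 0 h and 95.8 ± 6.49 in 2D cells at 0 h (SD, n = 3). Cdc6 was the least abundant in every group, at 4.92 ± 1.08 TPM in spheroids at 24 h, 14.4 ± 1.64 in 2D cells at 24 h, 7.82 ± 2.40 in spheroids at 0 h and 15.2 ± 1.36 in 2D cells at 0 h (SD, n = 3). In spheroids at 24 h the order below Pcna was Mcm6, Mcm7, Mcm3, Mcm2, Mcm4, Mcm5, Cdc45 and Cdc6. There Mcm2 overlapped with Mcm4 and Mcm5 with Cdc45, and the other neighbours were apart in all 3 libraries. In 2D cells at 24 h the order was Pcna, Mcm6, Mcm3, Mcm7, Mcm5, Mcm2, Mcm4, Cdc45 and Cdc6, and each neighbouring pair from Mcm6 to Mcm4 overlapped. In spheroids at 0 h it was Pcna, Mcm6, Mcm7, Mcm3, Mcm5, Cdc45, Mcm4, Mcm2 and Cdc6, with overlaps between neighbours from Mcm6 to Mcm5 and from Cdc45 to Mcm2. In 2D cells at 0 h it was Pcna, Mcm3, Mcm5, Mcm6, Mcm7, Mcm2, Mcm4, Cdc45 and Cdc6, with overlaps between neighbours from Mcm3 to Mcm6 and from Mcm7 to Mcm4. Cdc45 thus stood above Mcm4 and Mcm2 on average only in spheroids at 0 h, within the spread of Mcm4.

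The summed TPM of the 6 ring subunits was 154.8, 154.5 and 142.4 in spheroids at 24 h, against 333.4, 414.9 and 396.5 in 2D cells at 24 h. At 0 h it was 279.6, 293.9 and 285.9 in spheroids, against 288.3, 225.8 and 312.3 in 2D cells. The sum thus separated the cultures at 24 h and overlapped between them at 0 h. Pcna amounted to 0.576 to 0.685 of that sum in spheroids at 24 h, and to 0.243 to 0.328 in 2D cells at 24 h. At 0 h the ratio was 0.284 to 0.304 in spheroids and 0.292 to 0.457 in 2D cells. Spheroids at 24 h were therefore set apart from all other groups in the ratio of clamp to ring transcripts, a value given as a description with no test.

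The ring holds its subunits in equal number, but their transcripts were unequal, and the makeup differed between groups. Mcm5 made up 9.11% ± 1.21 of the summed subunit TPM in spheroids at 24 h and 15.8% ± 0.495 in 2D cells at 24 h (SD, n = 3). At 0 h it made up 18.0% ± 1.00 in spheroids and 20.5% ± 1.63 in 2D cells (SD, n = 3). It was the least abundant subunit in all 3 spheroid libraries at 24 h and in none of the other 9 libraries. Mcm2 made up 14.5% ± 0.216 in spheroids at 24 h and 13.6% ± 0.327 in 2D cells at 24 h, and 8.43% ± 0.438 in spheroids at 0 h and 12.4% ± 0.541 in 2D cells at 0 h (SD, n = 3). The TPM of Mcm5 over that of Mcm2 was 0.560 to 0.708 in spheroids at 24 h, 1.12 to 1.21 in 2D cells at 24 h, 2.03 to 2.32 in spheroids at 0 h and 1.59 to 1.77 in 2D cells at 0 h. No group overlapped with another in this ratio, for which no test was made.

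Mcm7 took a larger part in spheroids than in 2D cells at either time: 18.8% ± 0.715 in spheroids and 15.8% ± 1.03 in 2D cells at 24 h, and 20.7% ± 2.07 in spheroids and 14.4% ± 0.387 in 2D cells at 0 h (SD, n = 3). Mcm6 was the most abundant subunit in all libraries at 24 h, and Mcm3 in all libraries of 2D cells at 0 h. The Mcm3 lead in 2D cells at 0 h was small in replicate 1, at 64.55 against 63.23 TPM for Mcm6. It was also small in replicate 3, at 70 against 69.07 TPM for Mcm5. The length behind the TPM of Mcm6, read as counts over TPM relative to other genes, varied more among spheroid libraries at 24 h (SD 0.22 on the log2 scale) than among 2D libraries at 24 h (SD 0.011), and its part in the Mcm6 share was not tested. For Mcm7 the same relative length averaged 0.121 ± 0.028 in spheroids and 0.171 ± 0.086 in 2D cells at 24 h, and 0.167 ± 0.12 in spheroids and 0.291 ± 0.082 in 2D cells at 0 h (log2 scale; SD, n = 3). At 0 h the log2 fold change of Mcm7 was 0.58 on log2(TPM + 1) values (limma adjusted p = 0.005), against 0.33 on counts, and the part of the length in its share was not tested. For Mcm3 the relative length averaged -0.178 ± 0.068 in 2D cells at 0 h, against -0.0131 ± 0.09 in 2D cells at 24 h (log2 scale; SD, n = 3). In spheroids it averaged -0.0607 at 0 h and -0.082 at 24 h. The part of this length in the Mcm3 share was not tested. The ratio of the most to the least abundant subunit was 2.33 to 3.54 in spheroids at 24 h and 1.84 to 2.21 in 2D cells at 24 h. At 0 h it was 2.75 to 3.44 in spheroids and 1.96 to 2.77 in 2D cells. Cdc6 amounted to 3.27% ± 0.712 of the summed subunit TPM in spheroids and 3.78% ± 0.151 in 2D cells at 24 h (SD, n = 3). At 0 h it amounted to 2.73% ± 0.808 in spheroids and 5.57% ± 0.602 in 2D cells (SD, n = 3).

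**Figure D5:**
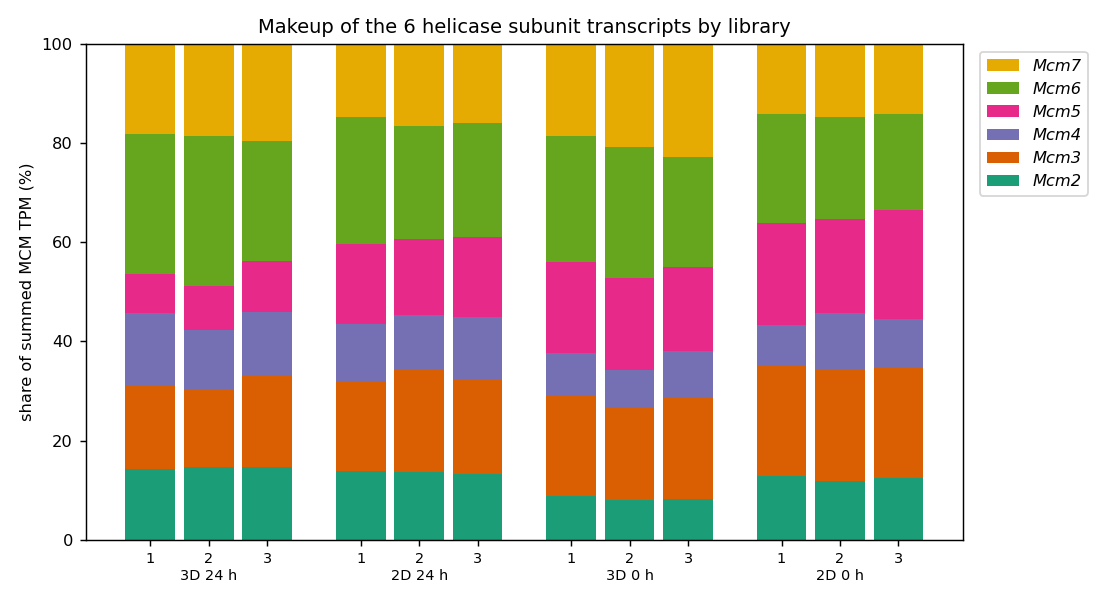
Share of each subunit in the summed TPM of Mcm2 to Mcm7 (percent, vertical) in each of the 12 libraries, by group and replicate number. The Mcm5 part is 9.11% on average in spheroids at 24 h, and the Mcm2 part is smallest in spheroids at 0 h, at 8.43% on average.

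Likeness across libraries was described by Pearson's r of log2(TPM + 1) over the 12 libraries, with no test, since the libraries form 4 groups. Each gene was set against the mean of the other 8, standardized. Mcm3 was most like the others (r = 0.94), the other ring subunits, Cdc45 and Cdc6 lay between 0.77 and 0.87, and Pcna was least like them (r = 0.13). Among genes outside the 9, the highest r with the mean of all 9 was 0.988, for ENSMUSG00000038296 and ENSMUSG00000022156. The tables used here do not name these genes.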

How the data were processed

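RNA was sequenced from 12 libraries, per the labels' protocols after low-input SMART-seq v4 handling and a stranded TruSeq mRNA preparation. Per the submitters' processing notes, FastQC 0.11.9, STAR and RSEM were used with GRCm39. No source used here names the STAR and RSEM versions, annotation or settings. Gene-level expected counts, which need not be whole, and log2(TPM + 1) values were deposited by the authors. Column names give day 0 and day 1, read as 0 h and 24 h.

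The rounded expected counts went into edgeR 4.0.16 (R 4.3.3): expression filter at minimum count 10, TMM scaling, and a quasi-likelihood fit of all 12 libraries with 1 term per group (8 residual degrees of freedom). Calls required a p under 0.05 after Benjamini-Hochberg adjustment over all genes tested. The SE is the log2 fold change divided by the square root of the F statistic. TPM was computed back from the deposited log2 values. The closest replicate pair differed by a chi-square per degree of freedom of 4.51, so no library was counted as a repeat of another. The steps were tested on simulated data.

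Alternatives were DESeq2 1.42.0, limma 3.58.1 on log2 TPM, other scalings, no filter, a replicate block and each library left out. The text names all 9 genes, and of the 5 other genes most like them the first 2. Lists of other replication genes and of cell type markers, given by symbol, were not analysed here, because the tables used here do not pair IDs with symbols. Symbols of the 9 genes come from the rule that chose them. Promoters were matched by symbol to RefSeq on GRCm38.p6. Members and lists were chosen with earlier results of these data known.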

Additional observations from a re-analysis of the deposited data

Results flagged for a closer look

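The change of the 3D against 2D log2 fold change between 24 h and 0 h passed a direct test, in edgeR's model over all genes, for 7 of the 9 genes, each with a lower value at 24 h. Of all genes tested, 20.5% had a lower and 18.7% a higher one. Among the ring subunits, the log2 difference was -1.86 for Mcm5 (edgeR adjusted p = 7.6e-07), -1.50 for Mcm7 (edgeR adjusted p = 1.4e-06), -1.48 for Mcm3 (edgeR adjusted p = 1.1e-05) and -1.41 for Mcm6 (edgeR adjusted p = 4.6e-06). It was -0.95 for Mcm4 (edgeR adjusted p = 0.00014) and -0.61 for Mcm2 (edgeR adjusted p = 0.011). For Cdc45, which joins the ring at origin firing, it was -1.29 (edgeR adjusted p = 8.3e-05). Each of these 7 passed under all 19 alternatives, which include leaving out each of the 12 libraries.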

How the results depend on the processing

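Under all 19 alternatives, 8 of the 9 genes were called for 3D against 2D at 24 h. Leaving out 1 library gave 8 for that comparison, 2 to 4 at 0 h, 6 to 8 for 24 h against 0 h in 3D, 2 to 4 in 2D, and 7 to 8 for the change between the times. Shares of all genes called were counted for the main fit only and not under the alternatives. In 2D, the fit with the replicate number as a block called 2 genes where the fit without it called 4. Same-numbered libraries of different groups did not deviate together (r between -0.23 and 0.05 over 18 pairs). With 3 libraries per group this cannot show whether the numbers pair libraries, and the labels do not say. The block moved the counts of the other 4 comparisons by 0 genes. Library totals moved the median log2 fold change of all genes to 0.12 for the culture comparison at either time, and the TPM values moved it to 0.17 for 24 h against 0 h in 2D. In that comparison, 2 values that had not been called turned positive with limma on log2(TPM + 1), Mcm5 at 0.10 and Pcna at 0.15 (0.11 and 0.15 with a pseudocount of 0.1), both below the shifted median. With each library left out, Pcna ran from -0.15 to 0.027 in 2D over time (0.027 without 2D 24 h replicate 2 and 0.0085 without 2D 0 h replicate 2), and from -0.024 to 0.20 in 3D over time (-0.024 without 3D 24 h replicate 2). The cause was not tested. Depth was least for Cdc6 and Cdc45, with 77 to 391 and 147 to 389 expected counts per library.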
